A study of Caenorhabditis elegans with 24 samples.

Results

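The genes described here are the neuropeptide genes of Caenorhabditis elegans whose names start with flp- (FMRFamide-like peptides) or nlp- (neuropeptide-like proteins). Members were chosen by gene name alone, from the WBcel235 annotation, with 7 names that only the RefSeq gene table of that assembly gives. This rule found 109 genes, of which 31 were flp genes, 8 were the epidermal genes nlp-27 to nlp-34, and 70 were other nlp genes. In all, 108 of the 109 were among the 20549 genes listed in at least 1 of the deposited tables. nlp-90 was in neither, nlp-46 was only in the daf-2 table, and nlp-22 was only in the wild-type table, where it had exactly the values of another gene and is therefore uncertain.

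A neuropeptide is made as a long precursor, cut by the proprotein convertase EGL-3, trimmed by the carboxypeptidase EGL-21, often amidated at its end, and released from dense core vesicles to act mostly on G protein-coupled receptors. FMRFamide-like peptides share an amidated ending in arginine and phenylalanine and act on movement, feeding, egg laying and sleep. The nlp names cover several unrelated peptide families, among them orcokinins and peptides that resemble cholecystokinin. nlp-27 to nlp-34 stand apart: they lie in a class of small glycine-rich peptides made largely by the epidermis, where nlp-29 is induced by fungal infection and wounding, and they are counted among the antimicrobial peptides.

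RNA of whole hermaphrodites was measured on the first day of young adulthood, after growth at 20 °C on OP50 bacteria, in 24 libraries, 4 from each of 6 genotypes. The genotypes were wild type (wt, N2), daf-2(e1370), in which the insulin/IGF-1 receptor is weakened, the single mutants bcl-11(bon125) and bcl-11(bon144), and a double mutant of daf-2 with each allele, written daf-2(e1370);bcl-11(bon144) or, with the other allele, daf-2(e1370);bcl-11(bon125). Both bcl-11 alleles were made by gene editing and are hypomorphic, so that the transcription factor is altered rather than removed: bon125 adds a stretch of residues and leaves the zinc fingers intact, and bon144 is an in-frame deletion with insertion inside a conserved domain. The comparisons ask what each allele does to these genes, alone and with reduced insulin signalling. Nothing in the labels says whether the 4 replicates were separate cultures, so that p-values measure only the spread between these libraries.

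The values are regularised log (rlog) values on a log2 scale, in 1 table of the 12 libraries without the daf-2 mutation and 1 table of the 12 libraries with it. The read depth is unknown, and precision rests on the 4 libraries of each genotype. Rlog pulls the values of weakly expressed genes towards their mean within a table, so that these genes hardly vary there and their fold changes are understated. In whole worms, fewer cells that make a peptide and less RNA per cell cannot be told apart. bcl-11 itself was detected in all libraries, with genotype means between 6.15 and 7.19, a level that does not check labels for alleles of altered sequence. Replicates 2 and 3 of bcl-11(bon144) and replicate 4 of daf-2(e1370) stood apart from the other libraries in sperm and epidermis markers. The mean of 15 sperm markers was 7.68 and 10.12 in those bcl-11(bon144) libraries against 4.52 and 4.56 in replicates 1 and 4, and that of 14 epidermis markers was 8.17 and 8.85 against 6.93 and 7.32. In wt these means ranged from 4.58 to 7.11 and from 7.02 to 7.39. For sperm markers, replicates 1 and 4 of bcl-11(bon144) lay just below the wt range. In daf-2(e1370), replicate 4 had a sperm mean of 7.73 over 16 markers and an epidermis mean of 9.11 over 15, against highest values of 5.93 and 8.09 in replicates 1 to 3. The part of these shifts in any result below was not tested, and values without these libraries are given where a result rests on them. Replicate 1 of bcl-11(bon144) also deviated: its mean correlation with its genotype was 0.967, against 0.981, 0.968 and 0.979 in replicates 2 to 4. Values without replicates 2 and 3 rest on replicates 1 and 4, and are not cleaned estimates.

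The neuropeptide genes are small, with a median exonic length of 552 bp against 1158 bp for all genes. X carries 35 of them (32.1%, against 14.0% of all genes), and the share was 41.9% among the flp genes, 13 of 31. Of the epidermal genes, 7 lie on chromosome V and nlp-32 lies on III. On V, 6 epidermal genes (nlp-34, nlp-31, nlp-30, nlp-29, nlp-28 and nlp-27, in order of position) fill a stretch of 10946 bp from 3978825 to 3989770 (WBcel235), with no other protein-coding gene between them. nlp-33 lies apart at V:11147346-11147737. A smaller group on X, flp-28, flp-3 and flp-2, spans 7932 bp from 10087314 to 10095245. The exons of 22 members overlap those of another gene, on the opposite strand in some cases. These include flp-8, flp-11, nlp-17, nlp-24, nlp-36, nlp-56 and nlp-99, and since the libraries did not keep strand their values are uncertain.

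Expression was considered high enough for testing where the mean rlog over the 12 libraries of a table was at least 3. This held for 73 of 109 members in the wild-type table (23 flp, 7 epidermal and 43 other nlp genes) and for 76 in the daf-2 table (25, 7 and 44), while 69.7% and 71.9% of all genes listed passed. Of all members, 72 passed in both tables, 4 passed with the daf-2 mutation only (flp-20, flp-26, nlp-39 and nlp-48), nlp-57 passed without it only, and 32 passed in neither. Counts of members tested therefore leave out the weakly expressed members and do not stand for the whole family.

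Per length, the epidermal genes led the family in wt. Given as rlog plus the correction to 1 kb of exon, nlp-27 stood at 15.86 (99.7th percentile of the genes kept), nlp-28 at 13.46, nlp-33 at 13.21, nlp-29 at 11.41 and nlp-31 at 10.82. nlp-30 at 6.00 and nlp-34 at 5.85 were lower than those by over 4 units, although they sit in the same stretch of chromosome V. nlp-32, at an uncorrected rlog of -1.07 ± 0.02 (SD, n = 4), was below the filter. Among the other nlp genes, nlp-24, which encodes opioid-like peptides, stood at 11.69 per kb, and nlp-40, made by the intestine as a signal for the defecation rhythm, at 10.61. nlp-36, nlp-99 and nlp-17 followed at 9.87, 9.63 and 9.22, with the reservation on overlap given above. The flp genes were lower: flp-6, a peptide gene of thermosensory AFD neurons, led at 9.71, followed by flp-5 (8.05), flp-8 (7.87), flp-9 (7.68) and flp-14 (7.61). The uncorrected SD over the 4 wt libraries was 0.20 for flp-5, 0.28 for flp-8, 0.32 for flp-9 and 0.31 for flp-14, so that the order among these was within the spread of the libraries, whereas flp-6 lay above it. The median per kb was 11.41 over the 7 epidermal genes kept, 6.58 over the 23 flp genes and 5.24 over the 43 other nlp genes, against 7.23 over all genes kept.

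**Figure D1:**
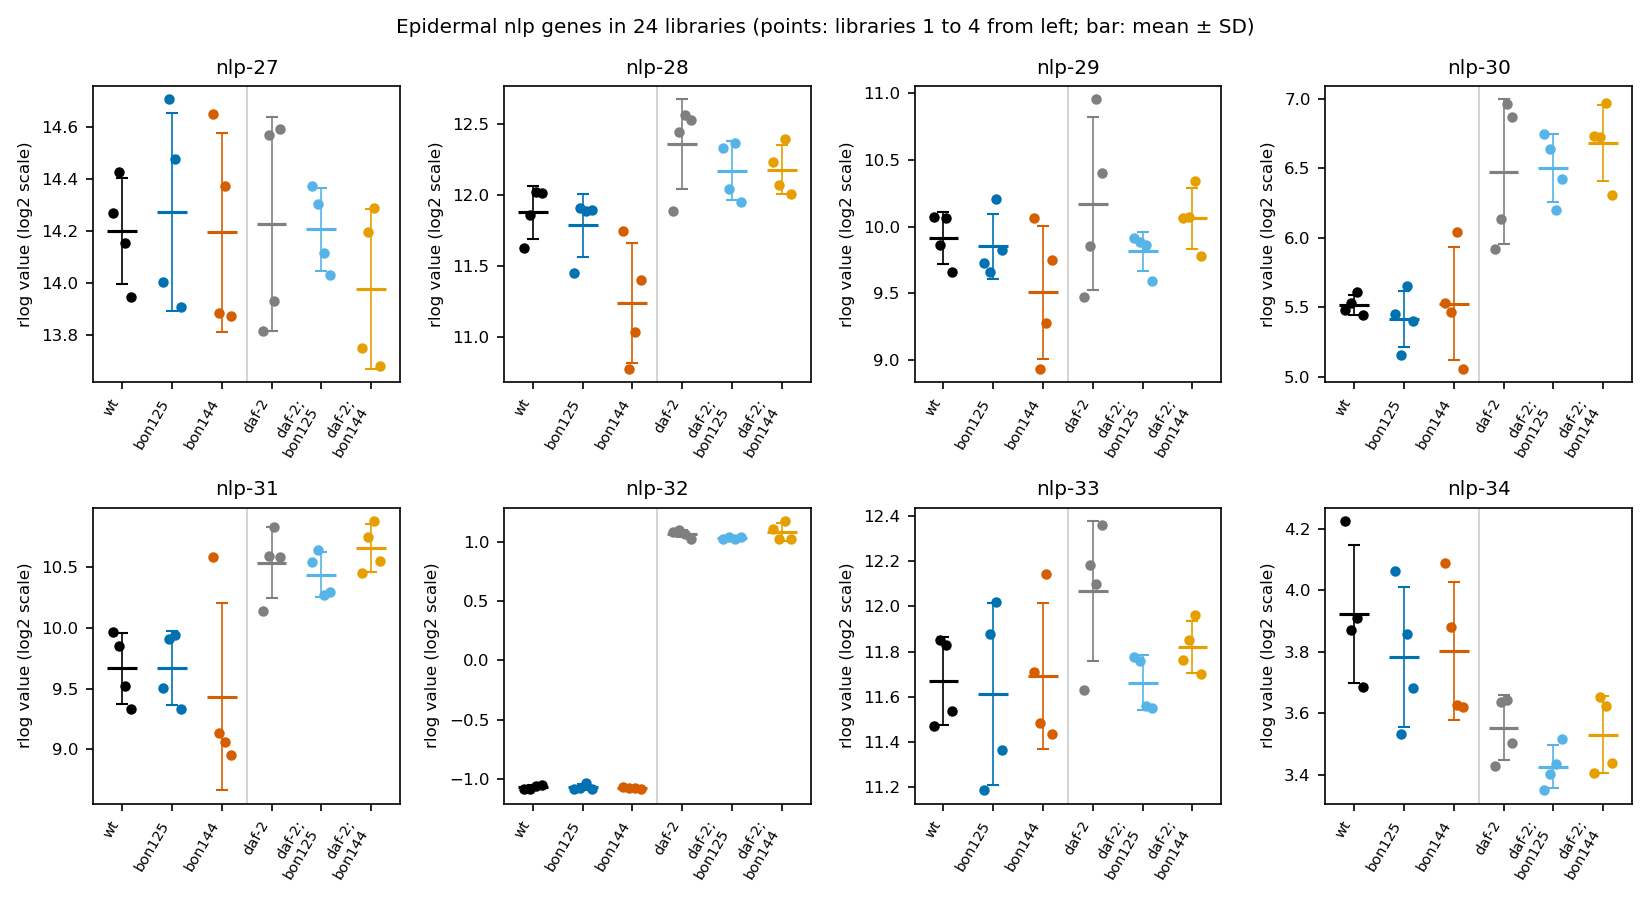
Rlog values (log2 scale, 1 panel and 1 scale per gene) of the 8 epidermal nlp genes in 24 libraries. Points are libraries 1 to 4 from left, bars are means ± SD, and the grey line parts the separately normalised tables. In bcl-11(bon144), nlp-28 lies at 11.75, 10.78, 11.04 and 11.40, and replicate 1 of nlp-31 stands at 10.59 above the others.

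The epidermal genes were the first question, since they move together in infected or wounded worms. None of the 7 tested passed in any of the 6 comparisons between genotypes (limma on rlog values, adjusted p under 0.05 and a change of more than 1.5-fold in either direction). At most 0.0669% of all genes passed in any of them. nlp-27, the highest member of the family, had 14.27, 14.43, 14.16 and 13.95 in wt, 14.01, 14.71, 14.48 and 13.91 in bcl-11(bon125), and 14.65, 13.88, 14.37 and 13.87 in bcl-11(bon144). These groups overlapped throughout.

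nlp-28, its neighbour, came nearest to a difference. Its values were 11.62, 11.86, 12.02 and 12.01 in wt, 11.45, 11.91, 11.89 and 11.90 in bcl-11(bon125), and 11.75, 10.78, 11.04 and 11.40 in bcl-11(bon144). In bcl-11(bon144), 3 libraries lay below all of wt, and replicate 1 lay inside the wt range. The log2 difference from wt was -0.64 (SE 0.19, 95% interval -1.05 to -0.22, unadjusted p = 0.00548), and did not pass after adjustment (limma, adjusted p = 0.470). It was -0.30 without replicates 2 and 3.

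nlp-29, the gene best known for induction by the fungus Drechmeria, showed 10.08, 9.86, 10.06 and 9.66 in wt and 10.06, 8.93, 9.28 and 9.75 in bcl-11(bon144), where replicates 2 and 3 were below every wt library and the others were not. The difference of -0.41 in means became -0.01 without those replicates. nlp-31 had 9.97, 9.85, 9.52 and 9.33 in wt and 10.59, 9.13, 9.06 and 8.95 in bcl-11(bon144), so that replicate 1 was the highest and the other 3 were the lowest of these 8 libraries. Their difference in means, -0.23, was 0.10 without replicates 2 and 3. nlp-30, nlp-33 and nlp-34 differed from wt by 0.01, 0.02 and -0.12 in bcl-11(bon144), the first 2 turning to -0.22 and -0.10 without those replicates.

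The caenacins, another group of epidermal peptides, were also lower in bcl-11(bon144), except in replicate 1. Their mean over the 6 genes kept was 8.17 and 8.21 in replicates 2 and 3 of bcl-11(bon144), 8.52 in replicate 4 and 9.21 in replicate 1, against 8.77 to 9.25 in wt. All 6 had a lower mean than in wt, with a median log2 difference of -0.51 where all genes had 0.01. None passed the test (0.0669% of all genes did), and 2 had an unadjusted p under 0.05 (limma, 7.1% of all genes). With the daf-2 mutation, 7 of the 8 caenacins kept were lower with bon125 and 7 of 8 with bon144. Their median differences from daf-2(e1370) were -0.29 and -0.24. None passed, and 2 of 8 had an unadjusted p under 0.05 with each allele (4.11% and 3.47% of all genes). The smallest adjusted p was 0.0824, with bon144 (limma). The list of epidermal immune regulators holds kinases and transcription factors that act upstream of nlp-29, and others such as dbl-1, sma-6 and sma-3. In bcl-11(bon144) against wt it had 17 genes tested, none of which passed, and a median difference of 0.05. That median does not describe the genes upstream of nlp-29 alone.

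In the daf-2 background, the epidermal genes overlapped between genotypes as well. nlp-33 had 11.63, 12.18, 12.10 and 12.36 in daf-2(e1370) against 11.78, 11.76, 11.56 and 11.55 in daf-2(e1370);bcl-11(bon125), a log2 difference of -0.41 (SE 0.14, unadjusted p = 0.0101, adjusted p = 1.000 by limma) and -0.31 without replicate 4 of daf-2(e1370). Replicate 1 of daf-2(e1370) lay among the double mutants and the other replicates lay above them, so that the overlap rested on replicate 1. That library was the lowest of its genotype for 7 of 7 epidermal genes tested, beside 25.9% of all genes. Its mean over these genes was 9.47, against 9.92 to 10.14 in the other replicates. Differences without it were not computed. nlp-29 spread widest in daf-2(e1370), at 9.47, 9.86, 10.96 and 10.40, and nlp-30 likewise at 5.92, 6.14, 6.97 and 6.87. In daf-2(e1370);bcl-11(bon144), nlp-30 had 6.73, 6.72, 6.97 and 6.31 and nlp-31 had 10.45, 10.75, 10.88 and 10.55, both inside or close to the range of daf-2(e1370).

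Whether an allele acted differently in worms with and without the daf-2 mutation was tested for 7 epidermal genes, and none passed. Of all genes, 0% passed for bon125 and 0.0609% for bon144. The intervals were wide: for bon125 and for bon144 alike, 6 of the 7 had a 95% interval that reached beyond 1.5-fold in at least 1 direction, so that a difference above that size lay inside the interval.

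**Figure D2:**
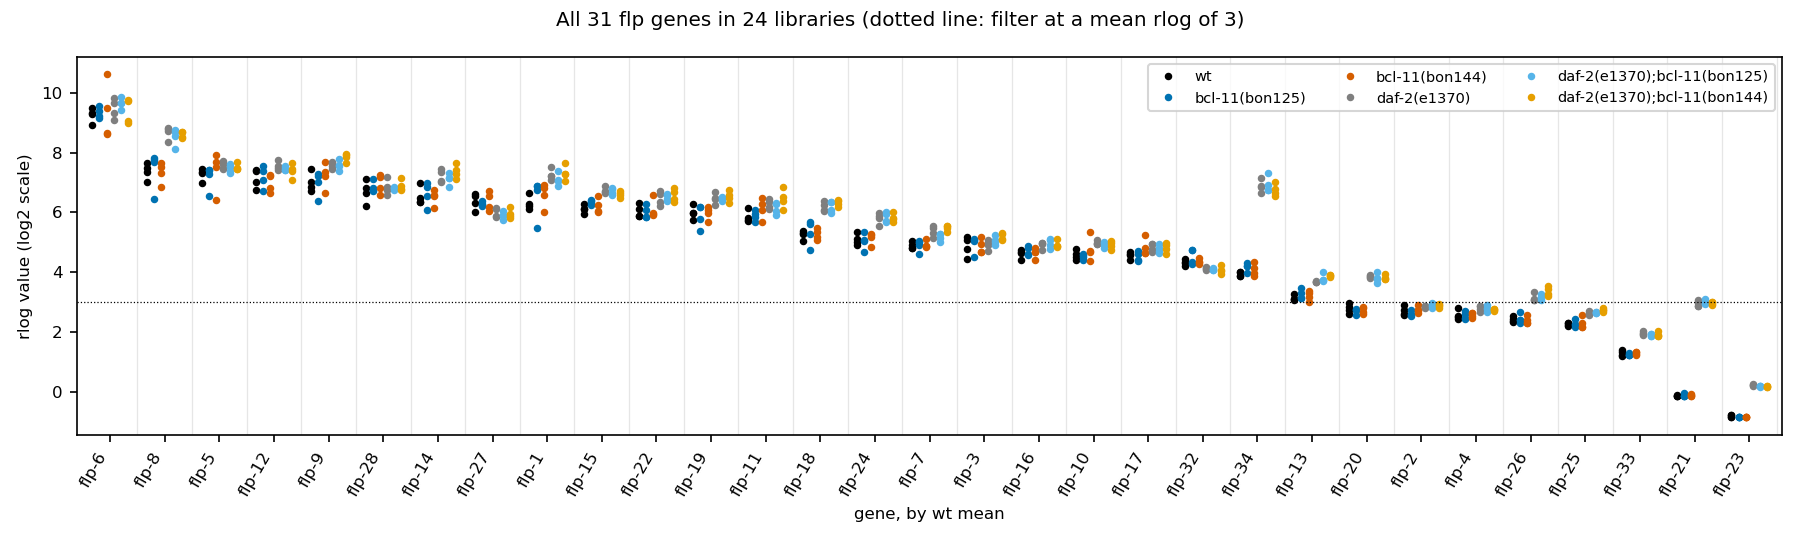
Rlog values (log2 scale) of all 31 flp genes, ordered by their wt mean, in 24 libraries. Each point is a library and each colour a genotype, and the dotted line marks the filter at 3. Replicate 1 of bcl-11(bon125) is the low blue point of flp-1 (5.48), flp-8 (6.46) and flp-5 (6.55), and flp-34 lies at 3.86 to 4.35 without and 6.54 to 7.31 with the daf-2 mutation.

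The flp genes did not pass the test in any comparison. Of 23 flp genes tested, 0 were called in bcl-11(bon125) against wt (0% of all genes called) and 0 in bcl-11(bon144) against wt (0.0669%). At an unadjusted p under 0.05 the count was also 0 in both, while 1.55% and 7.1% of all genes reached it. Mean values were higher than in wt for 15 and 17 of the 23 genes, beside 46.8% and 51.7% of all genes. Median log2 differences were 0.05 and 0.06 (-0.01 and 0.01 over all genes), and the most extreme differences were 0.24 and 0.29. For 18 of 23 genes in bcl-11(bon125) and 14 of 23 in bcl-11(bon144), the 95% interval of the difference lay within 1.5-fold on both sides. flp-1, flp-5, flp-6, flp-8 and flp-28 were outside this in both. In bcl-11(bon125) against wt, where this test called 0% of all genes, the authors did report dysregulated genes. A count of 0 therefore holds for this test and does not show that the allele has no effect.

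flp-15 had the most even shift in bcl-11(bon125): 6.32, 6.43, 6.39 and 6.26 against 6.28, 5.95, 6.10 and 6.13 in wt, a difference of 0.24 (limma, unadjusted p = 0.110) with replicate 4 below the highest wt library. For flp-11, whose peptides act in the sleep neuron RIS, wt had 5.71, 5.74, 6.13 and 5.80, bcl-11(bon125) 5.69, 6.08, 5.84 and 5.96, and bcl-11(bon144) 5.70, 6.07, 6.47 and 6.30, with overlap among all.

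A single library stood low for most flp genes. Replicate 1 of bcl-11(bon125) was the lowest of its genotype for 19 of 23 flp genes (82.6%), where it was the lowest for 28.3% of all genes kept. flp-1, a peptide gene of the AVK neurons that acts on locomotion, had 5.48 there against 6.76, 6.88 and 6.90 in the other replicates. flp-8 had 6.46 against 7.74, 7.84 and 7.70, and flp-18, whose peptides act on the receptors NPR-4 and NPR-5 in foraging, had 4.75 against 5.27, 5.61 and 5.68. Without this library, and with wt replicate 1 of the same batch kept, the difference from wt was 0.52 in place of 0.18 for flp-1. It was 0.38 in place of 0.05 for flp-8, and that of flp-5 turned from -0.11 to 0.10. The library was lowest for 26 of 43 other nlp genes as well and for 2 of 7 epidermal genes. Neuropeptide genes with other names had a mean of 5.48 in it against 5.99 to 6.27 in replicates 2 to 4, and 13 general neuron markers a mean of 6.68 against 6.71 to 6.91. The mean over the 23 flp genes was 5.50 in this library and 5.90 to 6.00 in replicates 2 to 4, against 5.71 to 5.92 in wt and 5.79 to 5.99 in bcl-11(bon144). Replicate 1 had the lowest flp mean in each genotype without the daf-2 mutation and in none with it. It was the lowest for 10 of 23 flp genes in wt and 10 of 23 in bcl-11(bon144), beside 24.8% and 36.7% of all genes.

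flp-6 was the most variable flp gene in bcl-11(bon144), with 10.63, 8.64, 8.66 and 9.49 against 9.48, 9.30, 9.32 and 8.91 in wt. nlp-40 had 11.17, 9.92, 9.78 and 10.18 against 10.33, 10.05, 10.39 and 9.72. For both, replicate 1 lay above the wt range, while replicates 2 and 3 were the lowest of the genotype, below the wt range for flp-6 and inside it for nlp-40. Their differences in means were 0.10 and 0.14 with all libraries and 0.81 and 0.55 without replicates 2 and 3. The latter values keep the high replicate 1.

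Among the 25 flp genes tested in the daf-2 background, 0 were called in either double mutant against daf-2(e1370), where 0.0141% and 0.0565% of all genes were called. With bon125, 0 of 25 had an unadjusted p under 0.05 (4.11% of all genes) and with bon144 4 of 25 (3.47% of all genes), all higher than in daf-2(e1370). flp-13, a peptide gene of the ALA neuron that promotes sleep after stress, had 3.90, 3.87, 3.92 and 3.85 in daf-2(e1370);bcl-11(bon144) against 3.71, 3.66, 3.68 and 3.67, a difference of 0.21 (SE 0.07) without overlap. flp-3 had 5.28, 5.31, 5.13 and 5.07 against 4.71, 4.92, 4.97 and 5.07, a difference of 0.28 (SE 0.10) in which the nearest libraries of the groups both rounded to 5.07. flp-9 (0.27) and flp-26 (0.22, named after its value was seen) were the others. All 4 had an adjusted p of 1.000 (limma), and the 95% interval lay within 1.5-fold for all 25 genes, so that changes above that size lay outside the intervals. flp-13 was also uneven in daf-2(e1370);bcl-11(bon125), at 4.02 in replicate 1 and 3.72 to 3.74 in the others, all above daf-2(e1370).

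The alleles were compared with each other too. Of the flp genes, 0 of 23 were called between bcl-11(bon144) and bcl-11(bon125) (0.0446% of all genes) and 0 of 25 between the double mutants (0.0494%). Unadjusted p-values under 0.05 were found for 0 and for 3, where 5.68% and 3.24% of all genes had them. The most extreme of these 3 was flp-7, an ASI peptide gene with a role in fat loss, with 5.55, 5.46, 5.53 and 5.35 in daf-2(e1370);bcl-11(bon144) against 5.27, 5.27, 5.01 and 5.15 in daf-2(e1370);bcl-11(bon125), a difference of 0.30 (SE 0.11) without overlap (limma, adjusted p = 0.999).

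**Figure D3:**
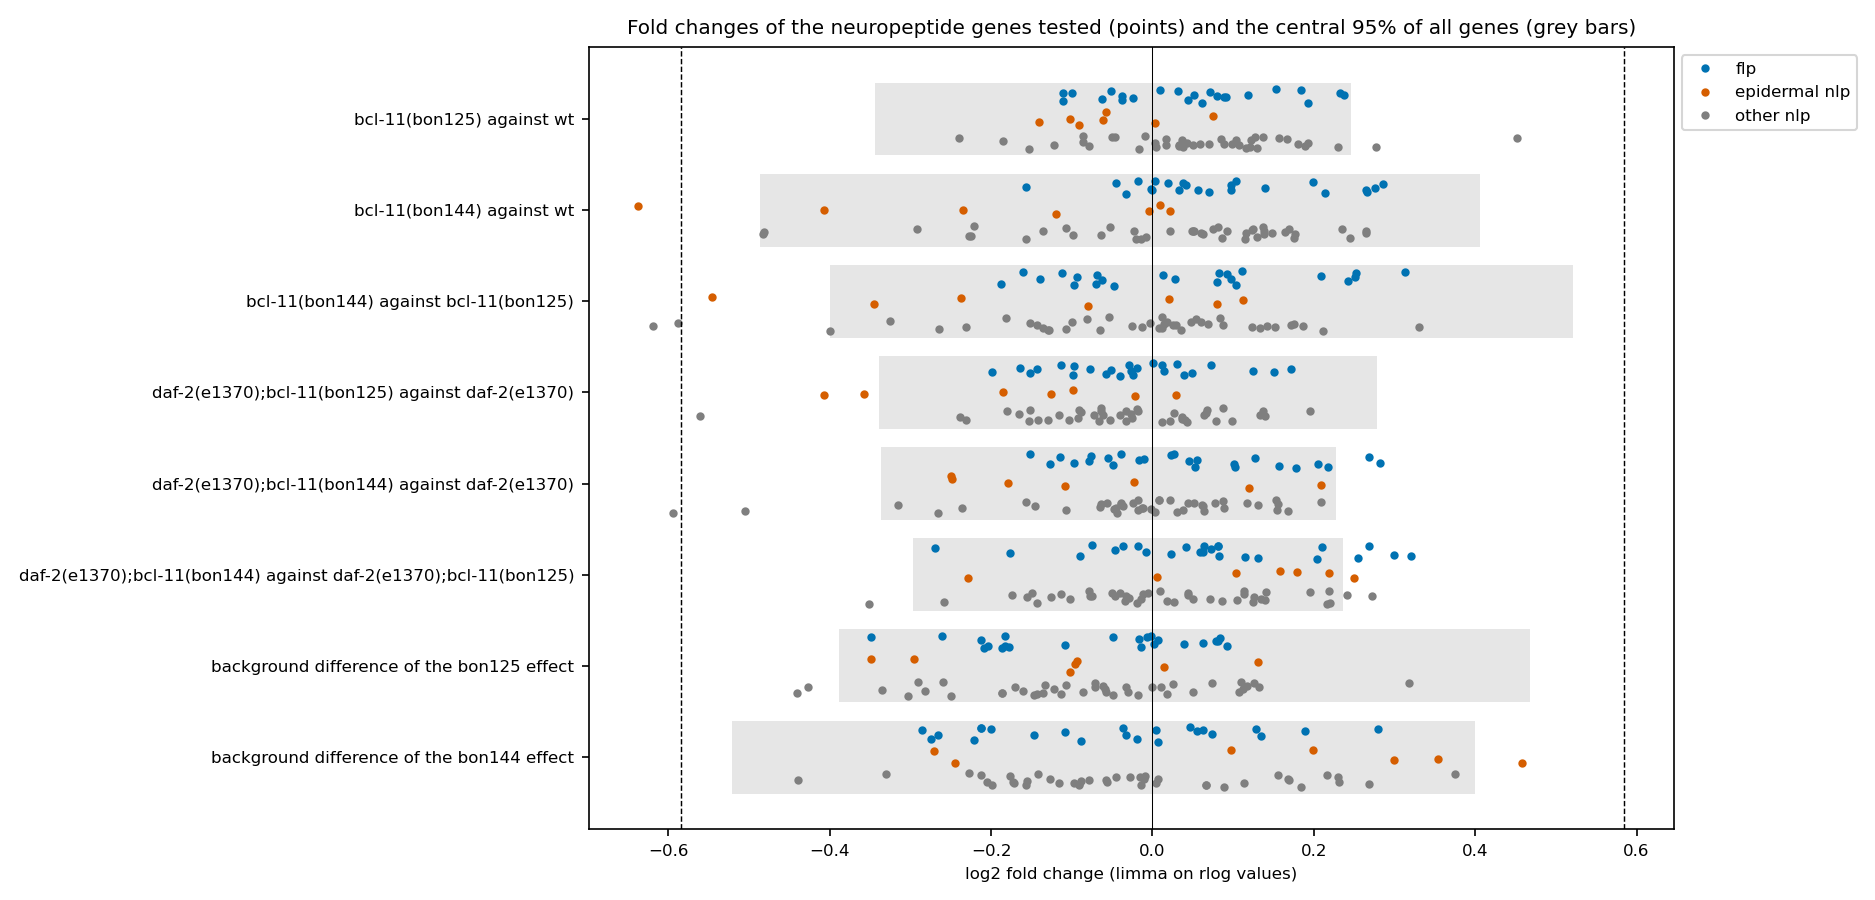
Log2 fold changes (limma on rlog values) of the members tested, 1 point a gene, in the 6 comparisons of genotypes and the 2 interactions of an allele with the daf-2 mutation. Grey bars span the central 95% of all genes tested and dashed lines mark a 1.5-fold change on each side. The points gather around 0, and nlp-28 at -0.64 is the farthest from it in bcl-11(bon144) against wt.

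Of the 43 other nlp genes tested without the daf-2 mutation, 0 were called with either allele (0% of all genes with bon125, 0.0669% with bon144). In bcl-11(bon125), 2 of 43 had an unadjusted p under 0.05 (1.55% of all genes). nlp-10, a precursor of several peptides, had 4.45, 4.74, 4.93 and 4.69 against 4.34, 4.06, 4.24 and 4.38 in wt. The groups did not overlap, which was the case for 1.95% of all genes, and the difference was 0.45 (SE 0.14, 95% interval 0.14 to 0.76, unadjusted p = 0.00752, adjusted p = 1.000 by limma). bcl-11(bon144) had 4.15, 4.44, 4.04 and 4.59, on both sides of the wt range. nlp-76, named after its value was seen, was the other, at -0.15. In the daf-2 background nlp-10 did not show the shift, with 5.36, 5.38, 5.28 and 5.22 in daf-2(e1370) and 5.28, 5.13, 5.72 and 5.15 in daf-2(e1370);bcl-11(bon125), and the bon125 effect with the daf-2 mutation minus that without it was -0.44 (SE 0.19, unadjusted p = 0.0309, adjusted p = 1.000 by limma).

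In bcl-11(bon144), nlp-51 and nlp-3 reached an unadjusted p under 0.05, as did 7.1% of all genes. nlp-51 had 6.11, 5.72, 5.66 and 6.05 against 6.07, 6.68, 6.37 and 6.34 in wt, a difference of -0.48 (SE 0.18, adjusted p = 0.628 by limma) that was -0.28 without replicates 2 and 3. Against bcl-11(bon125), with 6.23, 6.60, 6.88 and 6.31, its difference was -0.62 without overlap (adjusted p = 0.765). nlp-3, a peptide gene of the HSN neurons that stimulates egg laying, had 3.91, 3.75, 4.11 and 4.14 against 3.66, 3.69, 3.80 and 3.70 in wt, a difference of 0.26 (SE 0.11). The same gene differed by 0.17 between daf-2(e1370);bcl-11(bon144), at 4.16, 4.16, 4.02 and 4.11, and daf-2(e1370), at 3.96, 3.85, 3.97 and 4.00. That second pair of groups did not overlap, as was the case for 2.31% of all genes, and neither difference passed (adjusted p = 0.664 and 1.000 by limma).

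nlp-39 had the most extreme differences of the other nlp genes between a double mutant and daf-2(e1370). It had 6.68, 6.94, 7.35 and 7.82 in daf-2(e1370), 6.87, 6.62, 6.32 and 6.73 in daf-2(e1370);bcl-11(bon125), and 6.67, 6.34, 7.02 and 6.39 in daf-2(e1370);bcl-11(bon144). Differences were -0.56 and -0.59 (SE 0.22 each, adjusted p = 1.000 by limma), with overlap in both. Without replicate 4 of daf-2(e1370), the library with high sperm and epidermis markers, they were -0.35 and -0.39. The 2 differences share the daf-2(e1370) libraries. nlp-99, whose exons overlap those of nep-2, had a difference of -0.50 between daf-2(e1370);bcl-11(bon144) and its control, which was -0.30 without that library, and nlp-4 had -0.32 and -0.13. Of 44 other nlp genes tested, 1 and 4 had an unadjusted p under 0.05 with bon125 and bon144, beside 4.11% and 3.47% of all genes.

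Between the double mutants, 4 of 44 other nlp genes reached an unadjusted p under 0.05 and 0 were called, beside 3.24% and 0.0494% of all genes. nlp-6 and nlp-8 had differences of 0.27 and 0.22 and nlp-17 one of -0.26, the fourth being nlp-9 at 0.22, named after its value was seen. nlp-8, which like flp-13 acts in ALA-driven sleep, had 4.90, 4.91, 4.72 and 4.98 in daf-2(e1370);bcl-11(bon144) against 4.69, 4.71, 4.61 and 4.62 in daf-2(e1370);bcl-11(bon125). Although these groups did not overlap, the gap between 4.71 and 4.72 was narrow. For the orcokinin gene nlp-14, the bon125 effect with the daf-2 mutation minus that without it was -0.43 (limma, unadjusted p = 0.0444), which did not pass.

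Over all 3 groups together, members with an unadjusted p under 0.05 numbered 2 of 73 in bcl-11(bon125) and 3 of 73 in bcl-11(bon144) against wt, and 2 of 76 and 8 of 76 in the corresponding double mutants against daf-2(e1370). Those counts correspond to 2.74%, 4.11%, 2.63% and 10.5% beside 1.55%, 7.1%, 4.11% and 3.47% of all genes. Median log2 differences of the members were 0.04, 0.05, -0.03 and -0.01, beside -0.01, 0.01, 0.00 and 0.00 over all genes. In the test of whether an allele acted differently with the daf-2 mutation, 2 of 72 members (3.39% of all genes) had such a p with bon125 and 0 of 72 (2.72%) with bon144, and 0 were called, against 0% and 0.0609% of all genes. The 95% interval lay within 1.5-fold for 59 and 51 of the 73 members tested against wt and for 71 and 69 of the 76 tested against daf-2(e1370). For the others, nlp-28 and nlp-10 among them, a change of more than that size lay inside the interval.

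Groups without overlap were few, as they were across the genome. In bcl-11(bon125) against wt, nlp-10 lay higher in every library (0.884% of all genes did) and nlp-76 lower (1.06%). In bcl-11(bon144) against wt, 0 members lay higher and 0 lower, beside 1.69% and 2.44% of all genes, 4.13% together. Between these alleles 0 members lay higher in bcl-11(bon144) (1.52%) and 2 lay lower (1.43%), nlp-51 and nlp-58, the second named after its value was seen, for 2.94% of all genes in either direction. nlp-58 had 5.04, 5.03, 5.24 and 5.07 in bcl-11(bon144) and 5.31, 5.33, 5.35 and 5.32 in bcl-11(bon125), a narrow but complete separation (log2 difference -0.23). Against daf-2(e1370), flp-13 lay higher and 0 lower with bon125 (1.02% and 0.755% of all genes, 1.77% together), and flp-3, flp-13 and nlp-3 lay higher and 0 lower with bon144 (1.16% and 1.15%). Between the double mutants flp-7, nlp-8 and nlp-14 lay higher with bon144 (1.36%) and nlp-17 lower (1.69%), where 3.05% of all genes separated in either direction. The comparisons with daf-2(e1370) share its 4 libraries.

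Among members named for known roles, nlp-12, a cholecystokinin-like gene of the DVA neuron, had 5.08, 5.21, 4.69 and 5.10 in wt and 4.70, 4.87, 5.80 and 5.18 in bcl-11(bon144), where replicate 3 was high. In daf-2(e1370) it had 5.27, 5.02, 5.39 and 5.34. nlp-24 had 10.32, 10.20, 10.80 and 9.82 in wt, 9.98, 10.17, 10.92 and 9.72 in bcl-11(bon125), and 10.98, 10.37, 10.93 and 9.84 in bcl-11(bon144), so that replicate 4, which the labels give as a batch of its own, was lowest in all 3. It was also lowest in daf-2(e1370), at 9.82, and in daf-2(e1370);bcl-11(bon125), at 10.12, but in daf-2(e1370);bcl-11(bon144) replicate 1 was lowest, at 10.16 against 10.32 in replicate 4. flp-14, expressed in many neurons, had 6.35, 6.49, 6.99 and 6.34 in wt and overlapped with both alleles. nlp-56, on exons shared with another gene, spread from 7.10 to 9.13 in bcl-11(bon144) and from 8.08 to 8.69 in wt. Its difference in means, -0.48, was 0.13 without replicates 2 and 3 of bcl-11(bon144), with the 9.13 of replicate 1 kept.

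**Figure D4:**
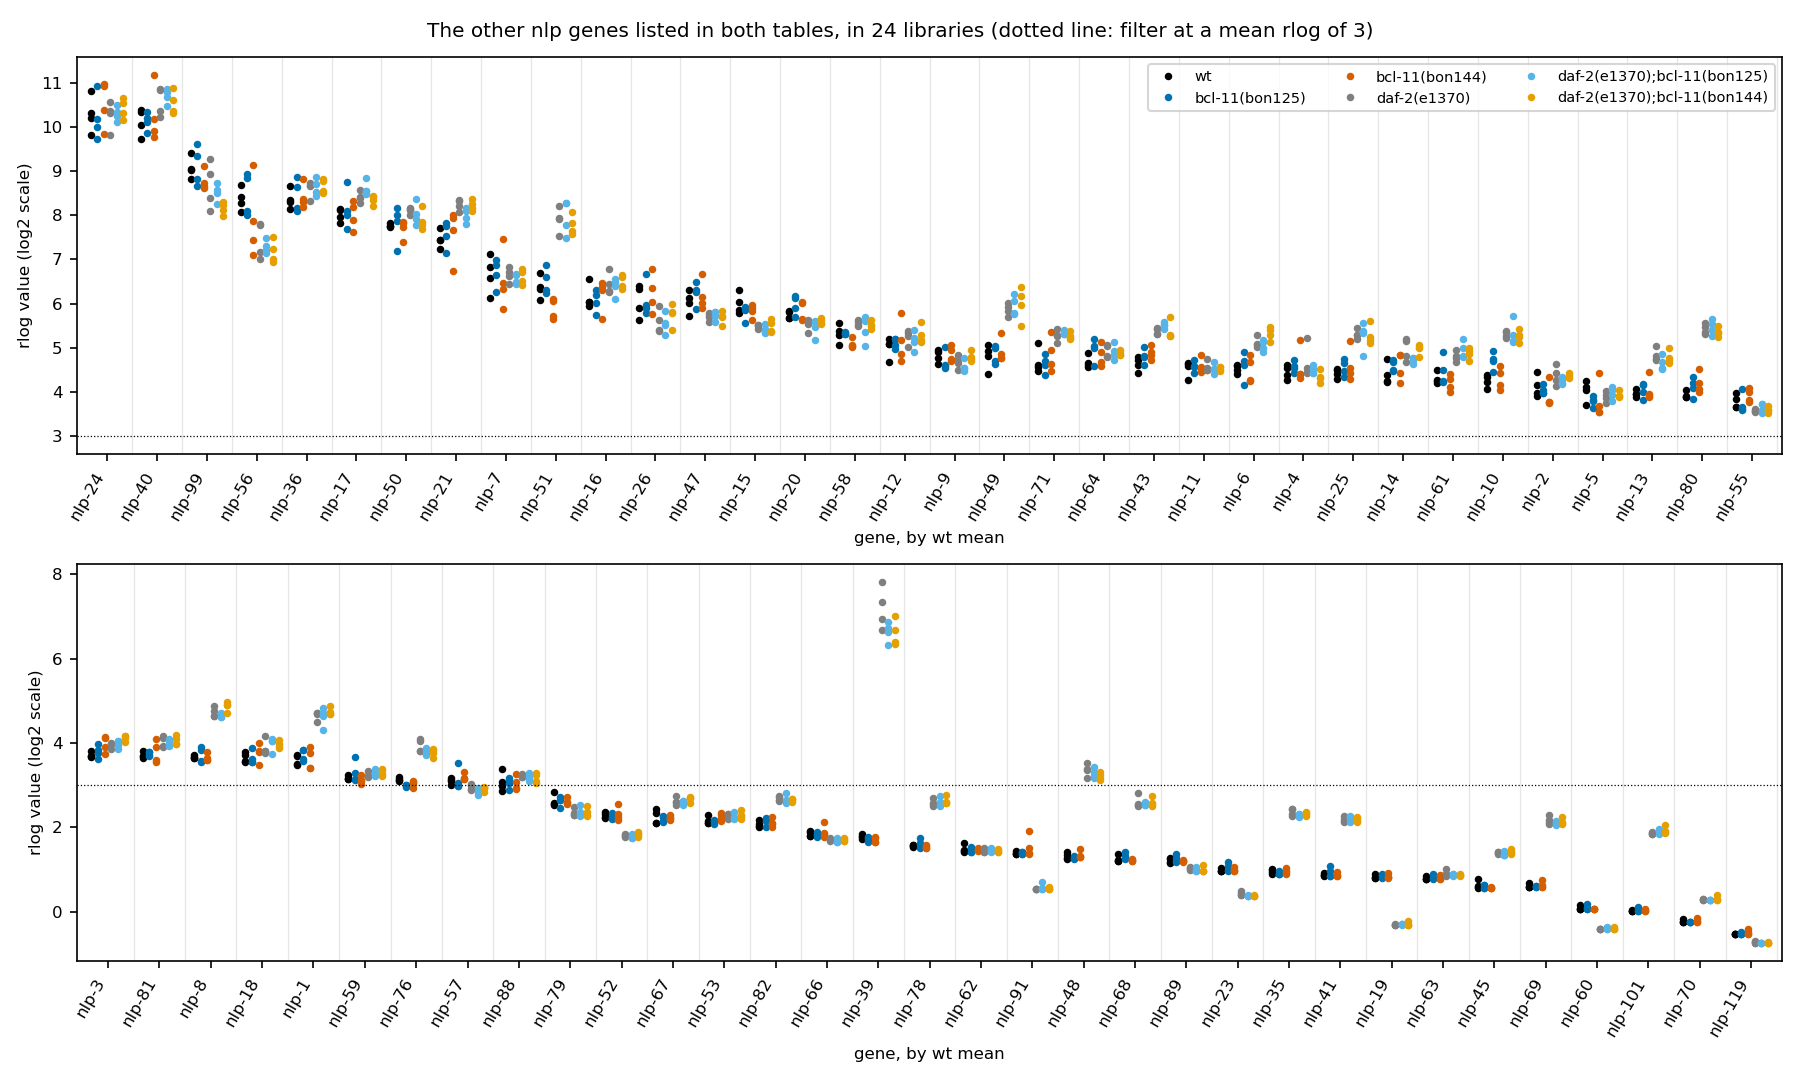
Rlog values (log2 scale) of the other nlp genes listed in both tables, ordered by their wt mean over 2 rows, in 24 libraries. Points are libraries, colours are genotypes and the dotted line marks the filter at 3. nlp-39 lies at 1.66 to 1.83 in the 12 libraries without the daf-2 mutation and at 6.32 to 7.82 in the 12 with it.

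The widest contrast in the family was between libraries with and without the daf-2 mutation. As the tables were normalised separately, these values stand side by side with no test. nlp-39 had 1.73, 1.83, 1.79 and 1.77 in wt and 6.68, 6.94, 7.35 and 7.82 in daf-2(e1370), a difference in rlog of 5.42. All 12 libraries with the mutation (6.32 to 7.82) lay above all 12 without it (1.66 to 1.83). flp-34, which encodes neuropeptide Y-like peptides used in olfactory learning, had 3.88, 4.01, 3.86 and 4.01 in wt and 6.86, 7.15, 6.64 and 6.89 in daf-2(e1370), a difference of 2.94. flp-21, whose peptide activates the receptor NPR-1 in the control of aggregation, was at -0.15, -0.12, -0.15 and -0.14 and at 2.86, 2.95, 3.08 and 2.86, a difference of 3.08 in a gene below the filter in both tables.

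nlp-51 was next among the genes kept, with 6.07, 6.68, 6.37 and 6.34 in wt and 7.93, 8.20, 7.90 and 7.52 in daf-2(e1370). nlp-80 followed with a difference of 1.49 and flp-8 with one of 1.29. flp-8 had 7.01, 7.37, 7.49 and 7.67 in wt and 8.71, 8.84, 8.79 and 8.37 in daf-2(e1370). These 3 genes did not overlap either. flp-18 was at 5.06 to 5.38 in wt and 6.04 to 6.39 in daf-2(e1370). flp-1 was at 6.12 to 6.65 and 7.09 to 7.53, and overlapped only once the double mutants and the bcl-11 alleles were added, at 5.48 to 6.92 and 6.90 to 7.65. Below the filter in at least the wild-type table, flp-20 (2.78 and 3.85), which touch receptor neurons express, flp-23 (-0.83 and 0.22), nlp-48 (1.33 and 3.36), nlp-101 (0.01 and 1.86), nlp-69 (0.61 and 2.17) and nlp-32 (-1.07 and 1.07) were higher with the mutation in wt and daf-2(e1370) means. nlp-19 (0.82 and -0.31), nlp-91 (1.38 and 0.54), nlp-23 (0.98 and 0.43), nlp-60 (0.08 and -0.42) and nlp-52 (2.29 and 1.80) were lower, these 5 named after their values were seen. Of the 34 members listed in both tables and under the filter in at least 1, 19 lay higher in all 12 libraries with the mutation and 8 lay lower (55.9% and 23.5%). Over all 5358 such genes the shares were 53.3% and 27.9%, so that weakly expressed genes in general were apart between the tables, and an offset of the table cannot be told apart from the mutation for these members, flp-21 and nlp-39 included.

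**Figure D5:**
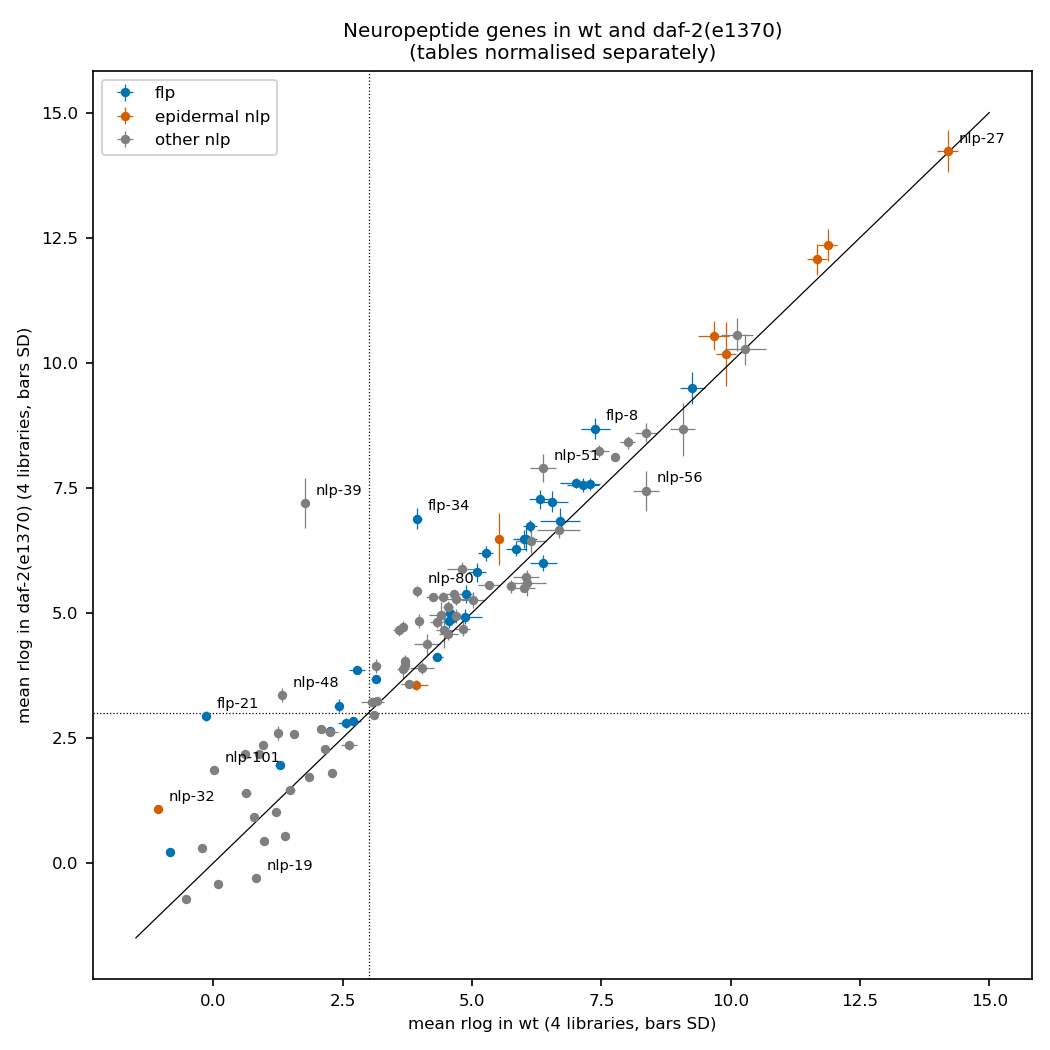
Mean rlog of the members in wt (x axis) and in daf-2(e1370) (y axis), 4 libraries each, with bars for SD, the line of equality, and dotted lines at the filter of 3. The tables were normalised separately and no test was made. nlp-39 (1.78 and 7.20), flp-21 (-0.14 and 2.94) and flp-34 (3.94 and 6.88) lie farthest above the line, and nlp-56 (8.36 and 7.44) lies below it.

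Of the 72 members kept in both tables, 58 had a higher mean in daf-2(e1370) than in wt (80.6%), where 52.6% of all 13131 genes did. The counts were 21 of 23 for flp, 6 of 7 for epidermal and 31 of 42 for other nlp genes. Median differences were 0.43, 0.40 and 0.24 in the same order, against 0.03 over all genes. A difference above 1 was found in 8 of the 72 (10.4% of all genes) and one below -1 in 0 (2.45%). In 15 of the 72, 5 flp and 10 other nlp genes, all 12 libraries of the daf-2 table lay above all 12 of the wild-type table (20.8%, with 16.9% of all genes), and none lay below (5.34% of all genes). This balance depends on the scale. When each library was centred on the median of its genes, 8 members lay above and 7 below, the all-gene median moved to -0.15, and the medians became 0.25 for flp, 0.21 for epidermal and 0.06 for other nlp genes. nlp-34 and flp-27 were among the 7 below, the second named after its value was seen. nlp-39, flp-34, nlp-51, nlp-80, flp-8 and flp-18 stayed without overlap on both scales.

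Epidermal genes differed less evenly. nlp-30 (5.52 ± 0.07 in wt and 6.47 ± 0.52 in daf-2(e1370), SD, n = 4 each) and nlp-31 (9.67 ± 0.29 and 10.54 ± 0.29) were higher with the mutation, nlp-27 was level (14.20 ± 0.20 and 14.23 ± 0.41), and nlp-34 was lower (3.92 ± 0.22 and 3.55 ± 0.11). nlp-28 had 11.88 ± 0.19 and 12.36 ± 0.32. With all 12 libraries on each side, 0 of the 7 were free of overlap. Epidermis markers moved the same way, with a median difference of 1.05 over 14 genes, and genes of the moult with 2.23 over 9. Their part in these differences was not tested.

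The other genes of the pathway were set beside the members. In the 6 comparisons between genotypes, 0 of 15 genes of neuropeptide processing, 0 of 12 of dense core vesicle formation and release, and 0 of 25 receptor genes (30 in the daf-2 table) were called (limma), and at most 1 of each list had an unadjusted p under 0.05. Of all genes, at most 0.0669% were called in any of these comparisons, and 1.55% to 7.1% had such a p. Between daf-2(e1370) and wt, 13 of 15 processing genes had a higher mean with the mutation (median difference 0.32), as had 8 of 12 vesicle genes (0.30) and 14 of 24 receptor genes (0.22), beside 52.6% of all genes. With centred libraries these medians were 0.14, 0.12 and 0.03. General neuron markers were higher as well, with 10 of 13 and a median of 0.46 (0.27 with centred libraries), beside 0.43 and 0.25 for the flp genes. Body wall muscle markers were higher in 7 of 10 (median 0.12), sperm markers in 7 of 15 (-0.04) and intestine markers in 5 of 12 (-0.09). Germline markers were higher in only 1 of 13 (median -0.49, -0.68 with centred libraries). The part of such tissue shifts in the differences of the members was not tested.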

How the data were processed

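The authors made non-stranded, full-length cDNA libraries with oligo-dT priming (Smart-seq2), sequenced them in paired-end mode, converted the reads with bcl2fastq 2.20 and assigned them to WBcel235 transcripts with Kallisto 048.0. The deposited values are rlog values on a log2 scale, in 2 tables that the authors normalised separately; the tool of that step is not given in the sources used here. Names and exons came from Ensembl 115 and RefSeq annotations of WBcel235.

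In each table, genes whose rlog averaged 3 or more were fitted with limma 3.58.1 (R 4.3.3, moderated by a mean-variance trend, Benjamini-Hochberg over all genes tested) and called at an adjusted p under 0.05 and a change of more than 1.5-fold. Differences between backgrounds used all 24 libraries and the genes kept in both tables. The fit was tried on simulated data with independent libraries and genes changed by a full log2 unit. That trial does not bear on smaller changes or on libraries that shift together. Levels per kb subtract the log2 of exonic length in kb. A member was named if it was called, epidermal, among the 3 most changed flp or other nlp genes of a comparison with the same sign in all 4 same-numbered pairs, among the 5 highest in wt or the 5 most different between daf-2(e1370) and wt in its group, or chosen for a known role. The members and lists were chosen with earlier results of these data known.

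The labels give each library a batch equal to its replicate number, so the number pairs libraries across genotypes. Same-numbered libraries deviated together with a mean correlation of 0.24, 0.22, 0.03 and 0.16 in the 4 comparisons of a mutant with its control. The main fits leave the batch out, and a fit with the replicate as a block was an alternative. No sequences are shown, and the depth of the libraries was not used here.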

Additional observations from a re-analysis of the deposited data

Results flagged for a closer look

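In 273 sets of 4 libraries (a named gene or a group mean in 1 genotype), 12 (4.40%) held a library that stood apart from the other 3 by a gap that took most of their range (Dixon's criterion at the 95% level). Chance gives about 1 in 20 such sets. Replicate 1 of bcl-11(bon125) accounted for 5 of them: flp-1 at 5.48, flp-3 at 4.51, flp-5 at 6.55, flp-8 at 6.46 and nlp-28 at 11.45 were all below their other replicates. In bcl-11(bon144), nlp-31 stood at 10.59 in replicate 1, and replicate 3 had nlp-4 at 5.19 and flp-7 at 5.10, each above the rest. In daf-2(e1370), nlp-4 was high at 5.21 in replicate 4 and nlp-36 was low at 8.31 in replicate 1. flp-13 stood at 4.02 in replicate 1 of daf-2(e1370);bcl-11(bon125). The mean of the 7 epidermal genes kept was low in replicate 4 of wt, at 9.37 against 9.59 to 9.61.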

How the results depend on the processing

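The count of members called was 0 in all 8 comparisons and stayed 0 under each of the 20 to 32 alternatives of each comparison: the replicate block, no filter or a filter at 5, library weights, fits of only the 2 genotypes compared, no variance trend, centred libraries, no fold threshold, and each library left out. Without any 1 library the lowest and the highest count were both 0. The replicate block gave 0 called in every comparison and changed no call. Leaving out replicates 2 and 3 of bcl-11(bon144), chosen after the data were seen, also gave 0. The smallest adjusted p of any member under any alternative was 0.0981, in bcl-11(bon144) against wt. Of 553 values for the 29 differences named as the most changed flp and other nlp genes with 1 sign in all pairs, 1 changed sign: flp-10 in bcl-11(bon125) against wt ranged from -0.105 to 0.0114 without any 1 library, the positive value coming without wt replicate 4. Outside these, flp-5 in bcl-11(bon125) and nlp-27, nlp-30, nlp-31, nlp-33 and nlp-56 in bcl-11(bon144) changed sign without the libraries that stood apart. Centring the libraries moved the median difference between daf-2(e1370) and wt from 0.37 to 0.19 over all members, from 0.43 to 0.25 for flp and from 0.24 to 0.060 for other nlp genes, since centring itself shifts all genes. Leaving out 1 wt or daf-2(e1370) library in turn, also chosen after the data were seen, gave 0.32 to 0.42 over all members. With 4 libraries a genotype and no counts, weakly expressed members allow no statement on small changes.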
